A study of Drosophila melanogaster with 5 samples.

Results

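Cytoplasmic ribosomal protein genes were measured by 37 probe sets, 1 for each of 37 genes, out of 13966 probe sets tested. Members were taken by symbol from the array's annotation, as probe sets with a single symbol that starts with RpL or RpS followed by a digit, or with RpLP. Mitochondrial ribosomal proteins carry the prefix mRp and are not members. The RefSeq table of Drosophila Release 6 holds 92 protein-coding symbols of this form, so 37 of 92 are described, and the others are not analysed here. RpS6, the phosphorylated protein of the small subunit, is not named by the annotation, and 2 probe sets that carry a member's symbol beside another gene's were left out.

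The RNA came from Drosophila melanogaster cells that carried green fluorescent protein (GFP) under a Gal4 driver (Cha-Gal4:UAS-GFP). The driver holds 7.4 kb of DNA from the choline acetyltransferase gene, and the cells were sorted by flow cytometry for GFP. Both groups share this driver, reporter and sort, and a GFP signal marks any cell in which the driver is active. The larval brain group is 1 array of sorted cells from dissociated brain (replicate a). The embryo culture group is 4 arrays of sorted cells from embryonic cell cultures (replicates a to d). The labels give no stage, age, time in culture or number of animals, nor whether separate cultures stand behind the 4 embryo arrays, so the p-values reflect spread between these samples alone, and that spread may be technical.

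Each cytoplasmic ribosome is built from a large subunit, which joins amino acids, and a small subunit, which reads the messenger RNA. Their proteins are named RpL and RpS, and RpLP0, RpLP1 and RpLP2 form a flexible stalk on the large subunit that recruits elongation factors. Cells make these proteins in step with growth, and in Drosophila the loss of 1 copy of many of these genes slows development and shortens the bristles (the Minute phenotype). Some genes have a second copy that is best known from the germline, and some genes named "-like" encode relatives that act in ribosome assembly rather than in the finished ribosome. The members were accordingly set out as 27 standard subunit genes (3 stalk, 13 large subunit and 11 small subunit genes), 7 second copies and 3 -like genes.

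Values are intensities as the authors scaled them. Differences are larval brain minus embryo culture on a log2 scale, after adding 47.4 to each intensity, with the standard error (SE) of a limma fit over all 13966 probe sets. Background on each array was set at the brightest of 23 control probe sets for genes of bacteria, yeast or mouse. It was 82.6 in larval brain and 147.8, 200.4, 119.0 and 271 in embryo culture (a to d). The spread in this fit comes from the embryo culture arrays alone, and the lone larval array is taken to vary as they do. Among all probe sets, 3.26% passed the test at an adjusted p of 0.05 (0.866% higher and 2.39% lower in larval brain), and the median difference was -0.07. Arrays do not record more cells apart from more RNA per cell, so the 2 cannot be told apart here.

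Of the 37 ribosomal protein probe sets, 0 passed the limma test in either direction (adjusted p from 0.285 to 0.988), beside 3.26% of all probe sets. At an unadjusted p under 0.05 there was 1, RpLP2, beside 16% of all probe sets. The median difference of the 37 was 0.58, and 27 of them had a positive difference, beside 46% of all probe sets. The 27 standard subunit genes, all above background on every array, had a median of 0.79, with 24 positive. Of the 10 second copies and -like genes 5 lay at or under background in larval brain, which leaves their differences without a measured size, and 3 of the other 5 were positive. The 95% intervals of the differences had a median half-width of 1.45 on the log2 scale and included 0 for 36 of the 37. In the whole table the smallest difference past the threshold was 1.35. The limit for a member depends on its SE, which ran from 0.38 to 0.94. RpL32 did not pass with a difference of 1.62, nor did RpL24-like with 1.40, so changes larger than 1.35 in a member can also go undetected.

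The median of the standard subunit genes was positive in 11 of the 12 other settings of the fit (0.27 to 0.92). Leaving out 1 embryo culture array gave 24 to 26 positive genes of 27. The median was 0.36 after quantile normalization, with 18 of 27 positive, and 0.27 with c and d alone as embryo culture, with 19 positive (0 members past the test, beside 5.7% of all probe sets). With the 3′ to middle ratio of control messenger RNAs as a covariate it was -0.34, with 10 positive, and that ratio in larval brain (1.15) lay outside the embryo culture range (1.495 to 2.45).

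**Figure D1:**
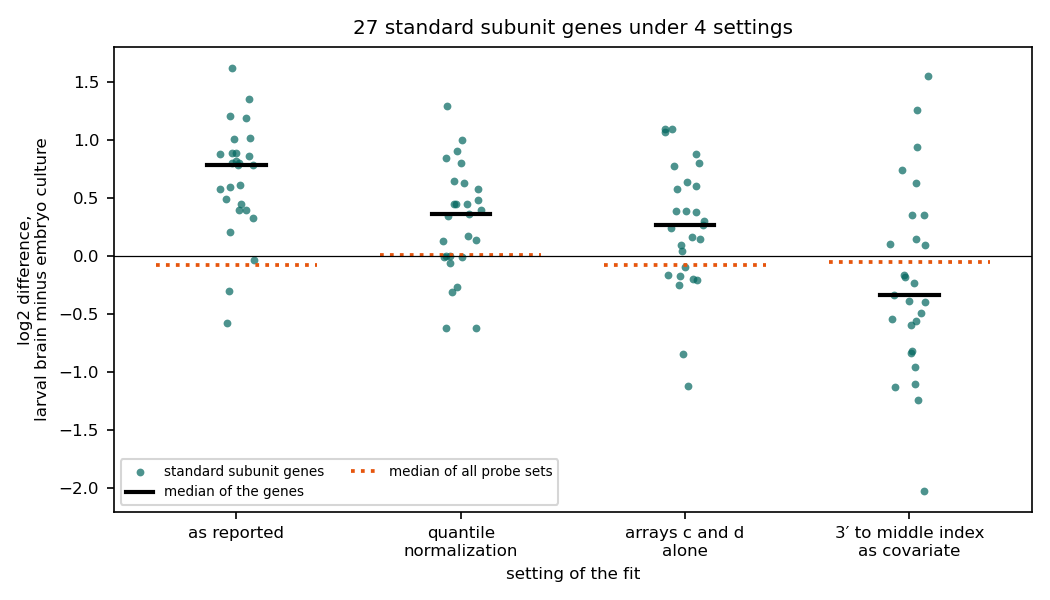
Log2 difference, larval brain minus embryo culture (y axis), of each of 27 standard subunit genes under 4 settings of the fit (x axis), with 1 point per gene. Their medians, drawn as black bars, are 0.79, 0.36, 0.27 and -0.34 from left to right. Dotted lines are the medians of all probe sets tested.

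The embryo culture arrays differed among themselves. Ribosomal protein probe sets held 7.56% of the summed signal of all tested probe sets in larval brain, against 4.11% on embryo culture array a, 4.71% on b, 7.53% on c and 6.06% on d. Larval brain thus lay beside array c, and a and b lay lowest. The highest of the 4 embryo culture signals was on array c for 22 of the 27 standard subunit genes (beside 19.9% of all probe sets), and the lowest was on a for 15 (beside 26.7%) and on b for 6 (beside 20.4%). The highest signal was at least 2 times the lowest for 17 of the 27, with a range from 1.14 for RpL23 to 5.02 for RpL32. In limma fits of 1 embryo culture array against the remaining 3, the median difference of the 27 was -0.52 for a, -0.45 for b, 0.92 for c and 0.22 for d. No member passed in these fits (limma, 0 for each array, lowest adjusted p 0.315), as no probe set of the whole table did, and 2, 0, 6 and 4 members had an unadjusted p under 0.05 for a to d, beside 2.48%, 2.76%, 4.67% and 11% of all probe sets.

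Set against the embryo culture arrays singly, larval brain was above a for 26 of the 27 standard subunit genes, above b for 25, above c for 13 and above d for 22, beside 49.1%, 46.8%, 53.4% and 42.2% of all probe sets. The median differences of the 27 were 1.18, 0.95, -0.0028 and 0.57 in this order, and those of all probe sets were -0.018, -0.07, 0.06 and -0.19. So the difference from embryo culture was one of more than 2-fold in the median against a, and close to 0 in the median against c. These comparisons share the larval brain array and are not independent.

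**Figure D2:**
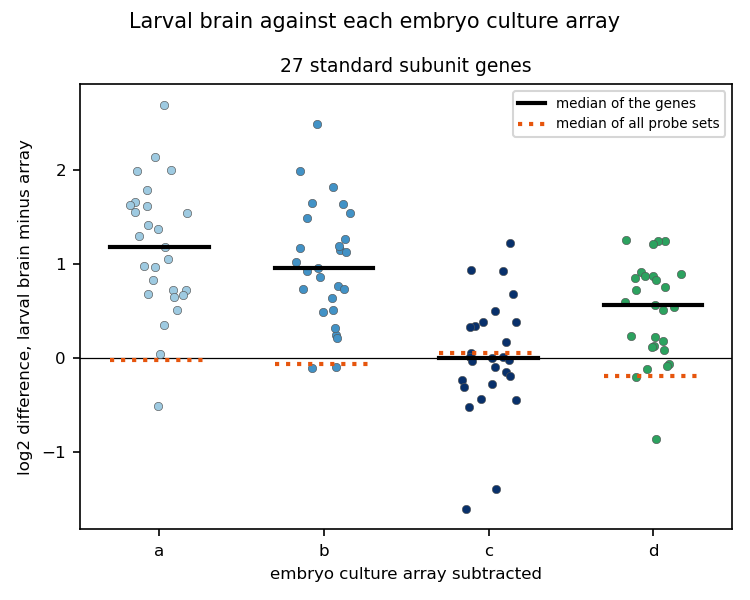
Log2 difference of larval brain minus each embryo culture array (y axis), for arrays a to d (x axis), with 1 point per gene in 27 standard subunit genes. Black bars are the medians of the genes and dotted lines those of all probe sets. The median of the standard subunit genes is 1.18 against a and -0.0028 against c.

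The mean log2 ratio of 3′ to middle signal of 3 control messenger RNAs (actin, eIF-4a and GAPDH), which grows as the 5′ side of a transcript is lost, was 1.15 in larval brain, against 2.45, 2.35, 1.495 and 1.66 in embryo culture (a to d). From the highest ratio to the lowest the 5 arrays run a, b, d, c and larval brain, which is also their order from the lowest to the highest ribosomal protein share. The order of a and b rests on eIF-4a (8.39 on a, 4.60 on b, as plain ratios), since b lay above a for actin (5.55 on b, 4.65 on a) and GAPDH (5.14 on b, 4.18 on a). For 18S ribosomal RNA, not in the mean, the ratio was 3.13 in larval brain, against 4.59, 5.71, 2.41 and 2.17, so larval brain lay above c and d. The summed signal of 8 measured progenitor markers, of 9 listed, was 13951 in larval brain, against 2473.5, 2630.1, 5399 and 4837 on arrays a to d, in the order of the ribosomal protein share. The larval brain sum was mostly brat (6721.6) and pros (3834.7). Of the 8, 6 had a positive and 2 a negative difference, beside 46% of all probe sets positive. For dpn, ase, insc and grh larval brain lay within the embryo culture range. All 8 lay above background in larval brain and 3 did on every array. The limma test was passed by 1 of them, pros (adjusted p = 0.0293), beside 0.866% of all probe sets past it and higher in larval brain. That call was lost without array c (0.0524) or d (0.079), after quantile normalization (0.0521), without the variance trend (0.0665) and with the 3′ to middle index (0.143). The adjusted p values in these fits are limma's, and the difference of 3.86 was 3.10 with the index and 3.86 to 4.04 in the other 4. The summed signal of 8 measured midgut and digestive markers, of 10 listed, was 1575.5 in larval brain, against 38161, 43929, 22511 and 28911 on arrays a to d. Larval brain was lower for 8 of 8, though only 4 of the 8 lay above background there and betaTry lay under it on all 5 arrays. The marker lists were chosen with earlier results of these data known, so their counts are not independent of these data. Of the 8, 5 passed the limma test, beside 2.39% of all probe sets. Among these 5, Muc26B (14.2) and hoka (12.3) lay under background in larval brain. Of the 5 calls that of Tsp2A was lost after median centring, without the variance trend, with the 3′ to middle index and without array d (limma adjusted p from 0.0566 to 0.0876). Of 5 measured muscle markers, of 8 listed, 5 had a negative difference and 0 passed (beside 2.39% of all probe sets). Only 1 of the 5 lay above background in larval brain. Larval brain lay below all 4 embryo culture arrays for 4 of them, while Tm2 (62.1) lay above array d (29.7). The sums of the 5 were 433 in larval brain and 801 to 5430 in embryo culture. The part of these cells in the ribosomal protein values was not tested, nor was that of the 3′ to middle ratio. The fit with the ratio as a covariate cannot tell it apart from the group. The larval brain ratio (1.15) lies outside the embryo culture range (1.495 to 2.45). Of 3 measured cholinergic genes, of 4 listed, ChAT and ChT lay above background on all 5 arrays and Ace on all but d. Of 7 measured neuron markers, of 10 listed, 5 lay above background in larval brain and 2, Appl and fne, on every array. The marker elav had 3047 in larval brain, against 103.8, 61.4, 712.6 and 666.7 on arrays a to d, under background on a and b. Summed signal of the 7 was 6270 in larval brain, against 1448, 1857, 2492 and 3385. Of the 7, 5 had a positive and 2 a negative difference, beside 46% of all probe sets positive. By limma 0 passed, beside 3.26%, and 2 had an unadjusted p under 0.05, beside 16%.

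**Figure D3:**
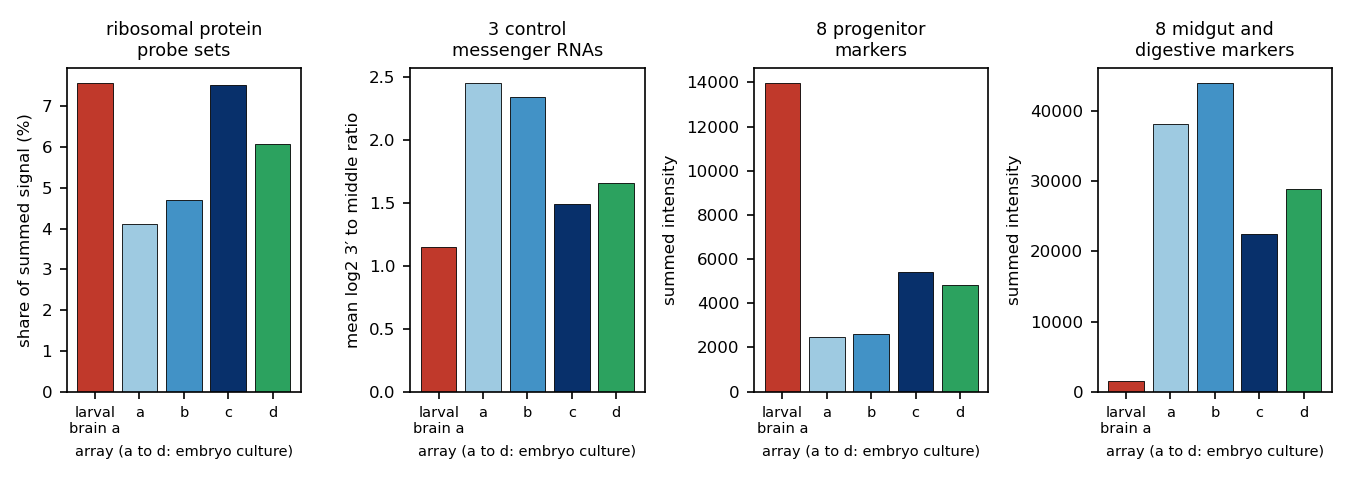
Measures of the larval brain array and embryo culture arrays a to d (x axes), 1 bar per array. From left to right they are the ribosomal protein share of the summed signal (7.56% in larval brain, 4.11% to 7.53% in embryo culture), the mean log2 3′ to middle ratio of 3 control messenger RNAs, and the summed intensities of 8 progenitor and 8 midgut and digestive markers.

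The stalk genes had positive differences in all 3 cases. RpLP2 had an intensity of 34204.5 in larval brain, against 11643, 15406, 14582 and 18174 in embryo culture (a to d). Larval brain lay above all 4, and the difference of 1.21 ± 0.51 had the lowest p of any member (0.0411 unadjusted, limma adjusted p = 0.285). It was between 1.10 and 1.31 in the 4 fits that leave out an embryo culture array, 0.80 after quantile normalization and 0.94 with the 3′ to middle index as a covariate. Its spread in embryo culture was small, with a highest over lowest signal of 1.56. RpLP0, the stalk's base, had 39009 in larval brain, against 19764, 19134, 30850.0 and 21322 in embryo culture (0.80 ± 0.57), and again all 4 lay lower. RpLP1, the partner of RpLP2, had 53254 in larval brain, against 37358, 44962, 53357 and 36619. Its larval brain value fell within the embryo culture range, just under array c.

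RpL32 gave the largest positive difference of any member. RpL32, also known as rp49 and in wide use as a reference gene in Drosophila expression studies, had 24637.5 in larval brain, against 3761, 4330.0, 18895.5 and 13213 in embryo culture (a to d). Larval brain was above all 4, and arrays c and d lay above a and b. The difference was 1.62 ± 0.85 (limma adjusted p = 0.407, 95% interval -0.30 to 3.53), and with the 3′ to middle index as a covariate it was -0.40. On this gene the embryo culture arrays differed among themselves by up to 5.02 times, and larval brain differed from them by 0.38 (c) to 2.70 (a) on the log2 scale.

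Other large subunit genes repeated this pattern to differing degrees. RpL37A, a small zinc-binding protein, had 33981 in larval brain, against 10711.5, 8503, 23914 and 14261 in embryo culture (1.35 ± 0.62, adjusted p = 0.333). RpL29 had 22962, against 5156, 6451, 22056 and 13903, and stood only just above array c. RpL39, which lines the tunnel through which the new protein leaves, had 22368 in larval brain, against 8612, 7638, 17804 and 12602. For all 3 genes the order of the embryo culture arrays had c highest and d next, and larval brain lay above c. RpL28 and RpL36A also had embryo culture arrays c and d above a and b, and their differences were 0.89 and 0.86. Larval brain lay just above c for RpL28 (8042 against 7979) and under c for RpL36A (27422 against 33194). RpL10Ab, the standard copy of a protein on the side of the large subunit where used transfer RNA leaves, had 45755 in larval brain, against 23303, 24115, 46521 and 32190.3, and lay just under c.

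A few large subunit genes did not follow the order of the others and are named here after their values were seen. RpL3, which lies near the centre where amino acids are joined, had 44382 in larval brain, against 26781, 28439.8, 23325 and 18553 in embryo culture, with d lowest and b highest. RpL17 had 26619.9, against 25803, 22914, 13879.6 and 11204.5, so that a and b, not c and d, lay nearest to larval brain. RpL23 was the steadiest member across embryo culture, at 12535.5, 13076, 13899.5 and 12147 on arrays a to d, and had 22278 in larval brain. Larval brain stood above every embryo culture array for each of these 3 genes, with differences of 0.89, 0.61 and 0.79. For RpL23 the SE of 0.46 exceeds the spread of its own 4 arrays (SD 0.08 on the log2 scale), because the fit shares spread across probe sets, and the adjusted p was 0.465. In the fit with the 3′ to middle index their differences were 1.26, 1.55 and 0.74.

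RpL27 was the only large subunit gene with a negative difference. It had 16448 in larval brain, against 9932, 13169, 43126 and 29842 in embryo culture, so that larval brain lay between b and d. The difference was -0.30 ± 0.80, and it was 0.06 without array c. With the 3′ to middle index as a covariate it was -2.02 (limma adjusted p = 0.0456), the 1 call on a member in any of the 12 other settings. With this covariate 2.92% of all probe sets passed, and 2.23% of all were lower in larval brain. RpL40, made as a fusion with ubiquitin, had 26476.5 in larval brain, against 16834, 18626.5, 36164 and 24214, with a difference of 0.21 ± 0.61.

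**Figure D4:**
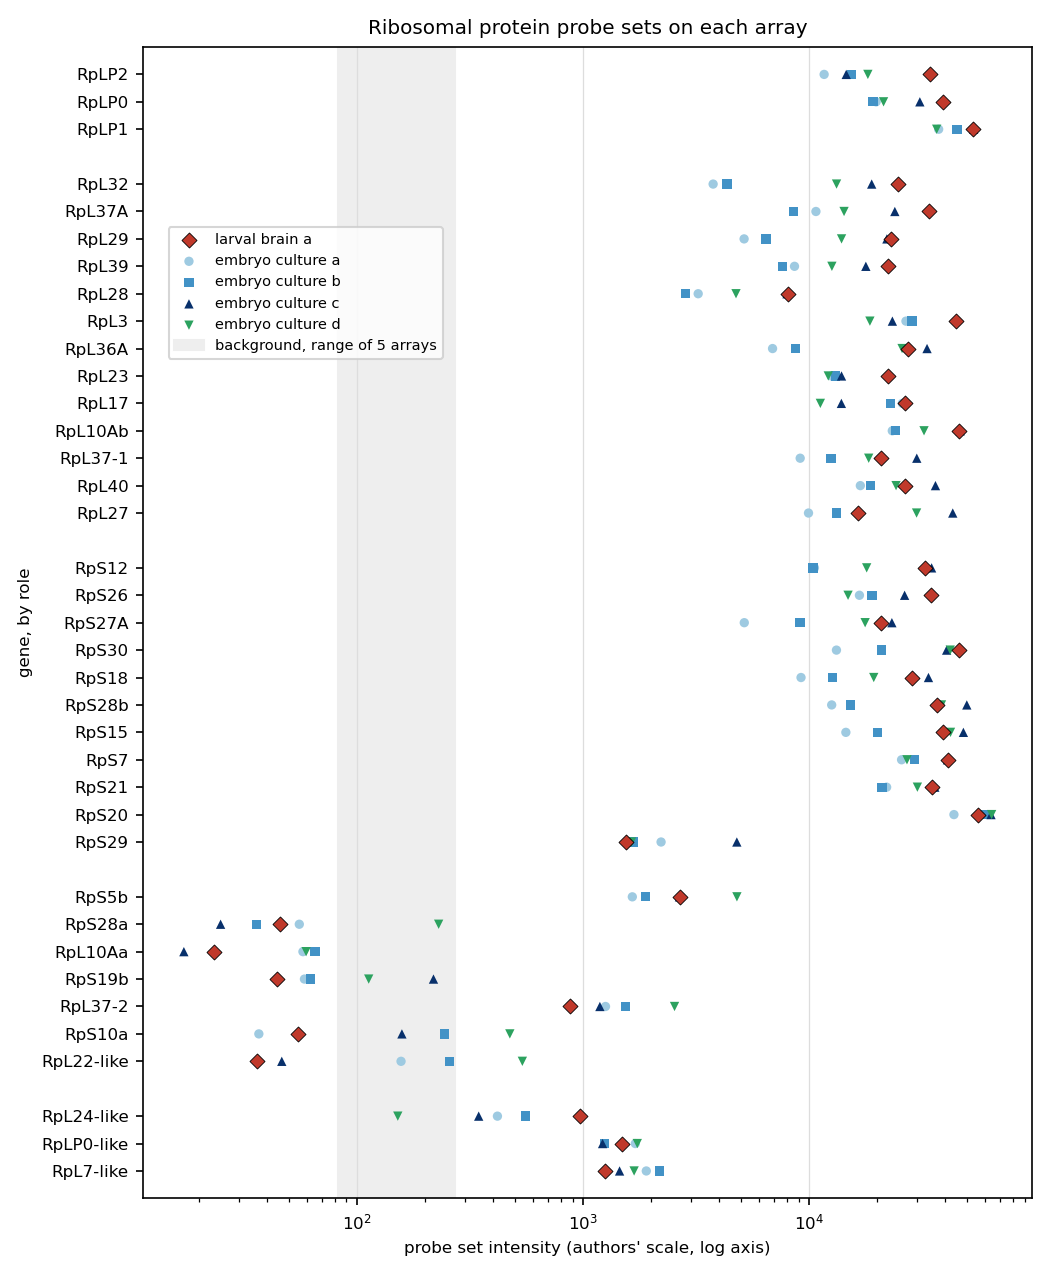
Intensity on the authors' scale (x axis, log) of the 37 ribosomal protein probe sets (y axis, grouped as stalk, large subunit, small subunit, second copies and -like genes), with the larval brain array as red diamonds and embryo culture arrays a to d as other symbols. The grey band is the range of background over the 5 arrays, 82.6 to 271. Embryo culture a and b lie left of c and d for most standard subunit genes, while several second copies lie in or under the band. Levels of different probe sets are not comparable with each other.

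The small subunit genes had 9 positive differences among 11, with a median of 0.58. RpS12, known in Drosophila for its part in the elimination of Minute cells by their neighbours, had 32521 in larval brain, against 10547, 10396, 34774 and 17957 in embryo culture. Its value in larval brain lay between those of d and c, and the difference was 1.0049 ± 0.72 (adjusted p = 0.559). RpS26, which lies where the messenger RNA leaves the small subunit, had 34560.5, against 16679, 18956, 26417 and 14855, all 4 below larval brain (0.88 ± 0.56). RpS27A, the other member made as a fusion with ubiquitin, had 20870.2 in larval brain, against 5165, 9121, 23207 and 17675. Array a was the lowest by far for it, and larval brain lay between d and c.

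RpS30, RpS18, RpS15, RpS7 and RpS21 had differences of 0.80, 0.78, 0.49, 0.44 and 0.40. For RpS7 and RpS30 larval brain was above all 4 embryo culture arrays, and for the other 3 it lay under array c. RpS20 had 55754 in larval brain, against 43648, 59605.5, 63661 and 64049.9, a difference of -0.034 ± 0.71, with a 95% interval of -1.65 to 1.58. The highest signal of any probe set was 70827 in larval brain and 67674 to 99144 in embryo culture, and the table does not record saturation. RpS29 was the only standard subunit gene with larval brain below all embryo culture arrays, at 1542 in larval brain, against 2214, 1667, 4788 and 1638. Arrays a, b and d stood close to larval brain and c far above, and the difference was -0.58 ± 0.57.

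**Figure D5:**
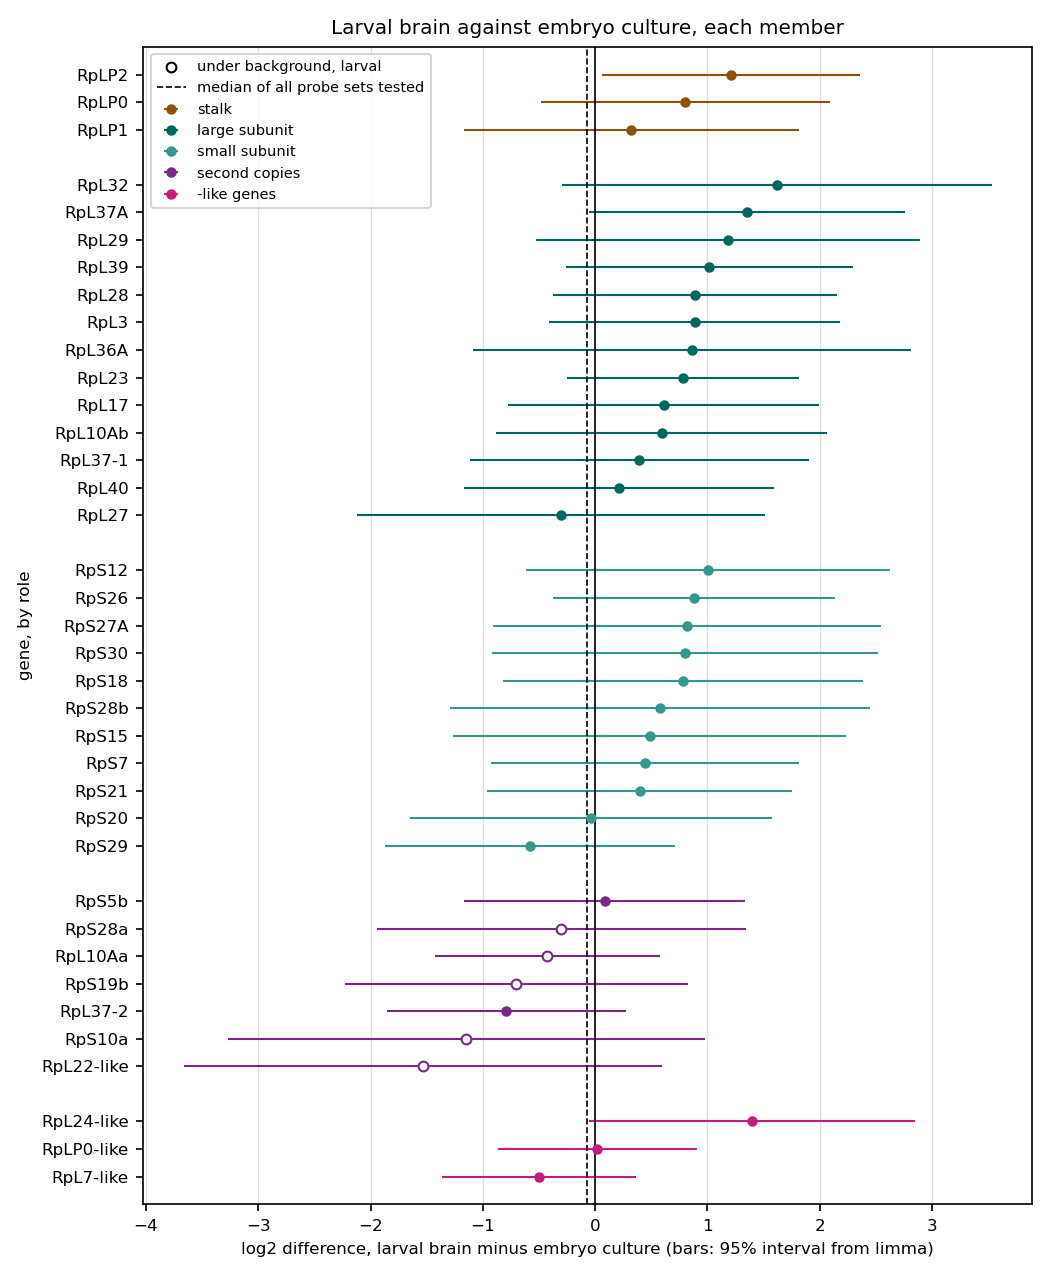
Log2 difference, larval brain minus embryo culture (x axis), of the 37 ribosomal protein probe sets (y axis, by role), with 95% intervals from limma as bars. Open circles are the 5 genes at or under background in larval brain, whose differences have no measured size. The solid line marks 0 and the dashed line the median of all probe sets, -0.07. Only the interval of RpLP2 lies wholly above 0, and its adjusted p is 0.285.

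Of the 7 second copies 5 lay at or under background in larval brain, namely RpL22-like, RpS10a, RpS19b, RpL10Aa and RpS28a. RpL22-like, known from the testis, had 36.2 in larval brain, against 157, 256, 46.6 and 539.5 in embryo culture (a to d), of which a, b and d lay above background. No fold is given, since array c was near larval brain, and the limma adjusted p was 0.49. RpS10a, also best known from the germline, had 55.0 in larval brain, against 36.9, 244, 158 and 475, above background on b, c and d, with a below larval brain (adjusted p = 0.616). RpS19b, a germline copy of RpS19, had 44.5, against 58.7, 62.5, 218 and 113, above background on c alone. The embryo culture arrays overlapped larval brain or background for each of these.

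RpL10Aa and RpS28a lay at or under background on all 5 arrays, so no fold is given. Their standard partners differed from them in this, since RpL10Ab and RpS28b lay above background on every array. RpS28b, which like RpS26 sits where the messenger RNA leaves, had 36852.5 in larval brain, against 12575, 15278, 49755 and 38451, with larval brain just under d (0.58 ± 0.83). The pair RpL37-1 and RpL37-2, added after its values were seen, had both members above background. RpL37-1 had 20788 in larval brain, against 9125, 12489, 29900.5 and 18329.7, with array c highest. RpL37-2 had 878 in larval brain, against 1258, 1537, 1188 and 2539.5, with larval brain below all 4 and array d highest. Their differences were 0.39 ± 0.67 and -0.79 ± 0.47, with intervals that overlap, and the difference between the copies was not tested. RpS5b, best known from the ovary, had 2674 in larval brain, against 1652.5, 1885, 2669 and 4792, above background on every array (0.086 ± 0.55). Copies can share probes with their near-identical partners, and this was not tested because the probe sequences were not used here.

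Since several second copies are known from the germline, germline markers are given beside them. Of 8 measured, of 10 listed, 3 lay above background in larval brain and 2 on every array. Beside 46% of all probe sets, 1 of the 8 had a positive difference. By limma 0 of the 8 passed, beside 3.26%, and 0 had an unadjusted p under 0.05, beside 16%. Their summed signal was 1772 in larval brain and 2014 to 2396 in embryo culture, and vas, which defines germ cells, had 33.6 in larval brain, against 215, 184, 93.7 and 257 in embryo culture (a to d), above background on a alone. Whether such cells have a part in the signals of the second copies was not tested.

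The 3 -like genes differed from each other. RpL24-like, whose yeast relative Rlp24 assembles the large subunit, had 967.5 in larval brain, against 419, 555, 346 and 152 in embryo culture, d being under background. Larval brain was above all 4 arrays, with a difference of 1.40 ± 0.64 (limma adjusted p = 0.332). RpLP0-like had 1480.2, against 1704, 1246, 1221 and 1738, a difference of 0.022 ± 0.39 with a 95% interval of -0.86 to 0.91. RpL7-like had 1253 in larval brain, against 1905, 2186, 1451 and 1683, below all 4 arrays (-0.50 ± 0.38, adjusted p = 0.588). In both RpLP0-like and RpL7-like array c was the lowest of the 4, where for most standard subunit genes it was the highest.

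Over all 37 members, larval brain lay above all 4 embryo culture arrays for 14 (beside 25.6% of all probe sets) and below all 4 for 5 (beside 28.6%). The 13 standard subunit genes above all 4 were RpLP2, RpLP0, RpL32, RpL37A, RpL29, RpL39, RpL28, RpL3, RpL23, RpL17, RpS26, RpS30 and RpS7. An exact permutation of 1 array against 4 cannot give a one-sided p under 0.2, so none is given for single genes.

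Other genes of translation were described beside the members, each gene by its brightest probe set. Their lists were chosen with earlier results of these data known. Of 33 initiation and elongation factors 25 were measured, with 22 positive differences (beside 46% of all probe sets) and a median of 0.91 (beside -0.07). Beside 3.26% of all probe sets, 1 of the 25 passed the limma test. That was eEF1alpha2, the elongation factor isoform of neurons and muscle, with 3108 in larval brain, against 55.5, 68.3, 389.8 and 121.7 in embryo culture (a to d), of which only c lay above background (limma adjusted p = 0.0284). The fitted difference of 4.20 ± 0.83 thus rests mostly on embryo culture signals under background and is no measured fold. Its call was lost without array d (adjusted p = 0.079, limma), without the variance trend (0.0522) and with the 3′ to middle index (0.15), and the adjusted p was 0.0153 to 0.0497 in 8 other settings and 7.181e-07 with only c and d kept. The fitted difference was 4.19 without d, 4.20 without the trend and 2.73 with the index. The helicase eIF4A, which unwinds messenger RNA for the ribosome, had 52487 in larval brain, against 14879, 15239, 43062 and 24763 in embryo culture (a to d), and was chosen after its values were seen. Larval brain was above all 4 and c was the highest of the embryo culture arrays. Rack1, a ribosomal protein of the small subunit whose symbol has another form, had 38188 in larval brain, against 22267, 27008, 29113 and 20384 (0.64 ± 0.57), and was the 1 measured member of its list of 4.

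Of 26 listed genes of ribosome biogenesis 22 were measured, with 9 positive (beside 46% of all probe sets) and a median of -0.17 (beside -0.07). By limma 0 passed, beside 3.26%, and 1, Fib, had an unadjusted p under 0.05, beside 16%. Fib, the methyltransferase of ribosomal RNA, had 3511 in larval brain, against 1654, 2124, 1674 and 1906 (0.92 ± 0.36, adjusted p = 0.249), above all 4 arrays. Non1, a nucleolar GTPase, had 8417 in larval brain, against 13233.5, 9568, 4644 and 3604.5, with a and b the highest of the embryo culture arrays.

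Of 18 regulators of growth and of ribosomal protein messages 13 were measured, with 9 positive (beside 46% of all probe sets) and a median of 0.53. Beside 3.26% of all probe sets, 1 of the 13 passed the limma test. That was M1BP, a transcription factor that binds promoters of many ribosomal protein genes in Drosophila. The array holds 2 probe sets for M1BP, and only the brighter is described. It had 3721 in larval brain, against 1115, 949, 793 and 737 in embryo culture (2.01 ± 0.40, limma adjusted p = 0.0282). Its call was lost without array b, c or d (adjusted p from 0.0529 to 0.0625) and without the variance trend (0.0754), while its difference ran from 1.90 to 2.42 over 11 other settings. Among 12 ribosome-associated chaperones and nascent chain factors, all measured, 10 had positive differences (median 0.76), beside 46% of all probe sets. By limma 0 passed, beside 3.26%, and 5 had an unadjusted p under 0.05, beside 16%. Nacalpha, which meets new proteins at the tunnel exit, had 10553 in larval brain, against 1448, 1551, 6210 and 3385, the order of arrays seen for RpL32, and it too was chosen after its values were seen.

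The 66 probe sets of mitochondrial ribosomal proteins, which share the same 5 arrays, gave 64 positive differences, beside 46% of all probe sets. Their median was 0.77, beside -0.07, and 0 passed the limma test, beside 3.26%. At an unadjusted p under 0.05 there were 11, beside 16% of all probe sets. With the 3′ to middle index as a covariate the median of the 66 was 0.60, beside -0.34 for the 27 standard subunit genes of the cytoplasmic ribosome. Against array c alone it was 0.57, beside -0.0028. The difference between the 2 families was not tested.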

How the data were processed

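Total RNA of GFP-sorted cells was measured on 5 Affymetrix arrays, with 14010 probe sets in the deposited table. The values deposited by the authors are probe set intensities on a linear scale. Their mean after trimming 2% at each end is 500.1 on every array, so each array was scaled to a common target, and the software is not given in the sources used here. Symbols came from the platform annotation, with 12443 tested probe sets holding 1 symbol, 327 several and 1196 none, and were checked against RefSeq Release 6, which changed 0. No detection or saturation flags, genome build, probe sequences, gene sequences or coordinates were used, so no sequence is shown and cross-hybridisation between copies was not tested.

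After 44 control probe sets were left out, 47.4 (the 20th percentile of all values) was added and log2 taken. Larval brain minus embryo culture was fitted with limma 3.58.1 in R 4.3.3 (lmFit and eBayes with a mean-variance trend), with Benjamini-Hochberg adjustment over all 13966 probe sets and a threshold of 0.05. The fit has 3 residual degrees of freedom and 9.112 after moderation. It was tested on simulated data. No array repeats another (at most 14 identical values in a pair). Tables and figures were made with Python 3.11.15, NumPy 2.4.6, pandas 2.3.3 and matplotlib 3.10.9.

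Named genes were members past the threshold, the 6 largest differences in each direction among members above background on every array of a group (only 5 were negative), copies marked a, b or -like, the stalk genes, the ubiquitin fusions and genes of the lists. The members and lists were chosen with earlier results of these data known. Alternatives were pseudocounts at the 5th and 40th percentiles (15.0 and 144.3), quantile normalization, median centring, leaving out dim probe sets, no variance trend, the 3′ to middle index as a covariate, leaving out each embryo culture array, and, added after the data were seen, embryo culture arrays c and d alone.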

Additional observations from a re-analysis of the deposited data

Results flagged for a closer look

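RpL10Aa on embryo culture array c, with an intensity of 17.2, stood apart from the other 3 embryo culture arrays (57.8, 65.3 and 59.7) by the test of Dixon at the 95% level, and larval brain had 23.4. All 5 values lie under background, and chance sets about 1 in 20 such groups apart.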

How the results depend on the processing

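No member passed the threshold under 11 of the 12 alternatives. With the 3′ to middle index as a covariate 1 did (RpL27, -2.02), and the median of the 37 differences was -0.38. Under that covariate the sign turned for RpL32 (-0.40), RpL29 (-0.49), RpS12 (-0.34), RpL28 (-0.18), RpL36A (-1.10), RpS27A (-0.82), RpS30 (-0.54), RpS18 (-0.56), RpL10Ab (-0.17), RpS28b (-1.13), RpS15 (-0.95), RpS21 (-0.23), RpL37-1 (-0.83), RpL40 (-0.60), RpS5b (-0.84) and RpL10Aa (0.0277). After quantile normalization it turned for RpS15 (-0.0048), RpS7 (-0.0074), RpS21 (-0.0584), RpL37-1 (-0.004), RpLP1 (-0.0065), RpL40 (-0.27) and RpLP0-like (-0.0515). When only c and d stood for embryo culture, a setting chosen after seeing the data, it turned for RpL36A (-0.092), RpS28b (-0.25), RpS15 (-0.21), RpL37-1 (-0.17), RpL40 (-0.16) and RpS5b (-0.41). After median centring, which moved the median of all probe sets to 0.0476 from -0.0746, it turned for RpS20 (0.0885). The cause of these changes was not tested. Leaving out 1 embryo culture array gave ranges that cross 0 for RpS5b (-0.1112 to 0.392), RpLP0-like (-0.0607 to 0.1038), RpS20 (-0.1625 to 0.0218), RpL27 (-0.642 to 0.0624) and RpS28a (-0.5219 to 0.1242). In all, 38 of 442 member values turned, in 22 members. No paired analysis was possible because the groups share only the replicate letter a. Each gene has 1 member probe set, so 1 probe set per gene left the median as it was. With 1 larval brain array its own spread is unknown, and dim members are limited by background.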
